A study of Arabidopsis thaliana with 18 samples.

Results

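The genes described here are the 187 loci of the Arabidopsis thaliana root tip whose counts were lower with L-Kyn than with mock treatment in tips that were not cut. L-Kyn is L-kynurenine, a compound that inhibits TAA1, the enzyme that turns tryptophan into the precursor of the auxin indole-3-acetic acid. Auxin is made in the root tip and moved there by efflux carriers of the PIN family. In the nucleus it brings about the breakdown of Aux/IAA proteins, short-lived repressors, and the genes thereby released include those of the Aux/IAA repressors themselves. Auxin is also known to sustain cell division in the root meristem.

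Members were chosen on their values. A locus was taken if its mean in mock uncut tips was at least 5 CPM (reads on a locus per 1000000 reads on genes), if all 5 L-Kyn uncut libraries lay below all 3 mock uncut libraries, and if the mean log2(CPM + 1) was lower by at least 0.5 both at 3 h and at 6 h of L-Kyn. Of 22093 loci, 13080 reached the level, 305 of those (2.33%) had no overlap between the libraries in that direction, and 187 (1.43%) also met the limit on the differences. The choice was to end at 200 loci, a number not reached. In the opposite direction, 188 loci (1.44%) had all 5 L-Kyn libraries above all 3 mock libraries, and 68 (0.52%) also met the mirrored limit of 0.5. The lower values in uncut tips are therefore a description of how members were picked, and are given with no test. In those same comparisons edgeR's quasi-likelihood test with Benjamini-Hochberg adjustment called 0 of 16354 loci, or 0.0%, at 3 h or at 6 h. At an unadjusted p under 0.05 it gave 979 lower and 501 higher loci at 3 h, and 840 lower and 553 higher loci at 6 h.

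The 18 libraries were made from whole root tips of 7-day-old seedlings with a kit that reads transcript 3′ ends. The labels give no genotype. L-Kyn at 100 µM was present for 3 h in 3 uncut libraries and for 6 h in 2, and 3 mock uncut libraries carry no time. Tips cut 120 µm above the quiescent centre (the slowly dividing cells that organise the stem cells) gave 2 libraries at 3 h and 3 at 6 h with L-Kyn, and 3 at 3 h and 2 at 6 h with mock treatment. The labels' account of the L-Kyn treatment breaks off, so whether L-Kyn preceded the cut is unknown here. The labels do not state whether replicates are separate pools of plants, so a p-value here reflects the spread among these libraries alone, which may be technical. In whole tips, fewer cells of a type and less RNA per cell cannot be told apart.

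Reads on genes numbered 1280947 to 4839810 per library, so that 3 counts correspond to 0.620 to 2.34 CPM. Some libraries stand apart from their labels. Replicate 2 of the libraries labelled L-Kyn cut 3 h had Spearman correlations over loci of 0.954 to 0.979 with L-Kyn uncut 3 h libraries, and of 0.871 to 0.912 with mock cut 3 h libraries. It held 115.6 CPM in sum of 3 defining root cap genes, against 2.07 CPM in L-Kyn cut 3 h replicate 1 and 0.581 to 1.68 CPM in mock cut 3 h libraries, and uncut libraries held 28.2 to 216 CPM. L-Kyn uncut 6 h replicate 1 is uncut by its title and cut by its source field. The title was used, and that library correlated at 0.960 with L-Kyn uncut 6 h replicate 2 at 0.925 to 0.940 with L-Kyn cut 6 h libraries and at 0.883 to 0.962 with mock uncut libraries. Defining genes of green tissue, which a root tip should lack, summed to 25.4 to 232 CPM in the 6 h libraries and in mock uncut replicates 1 and 2 and to 0.581 to 3.92 CPM in the 3 h libraries and mock uncut replicate 3. Each comparison of L-Kyn with mock in cut tips lies on one side of that division, and its part in the choice of members was not tested.

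Most members were expressed at a low level. Their mean in mock uncut tips had a median of 14.0 CPM and ranged from 5.02 to 369 CPM, against a median of 22.5 CPM over all 13080 loci at that level. The median difference in log2(CPM + 1), L-Kyn minus mock, was -0.86 at 3 h and -0.82 at 6 h, and 31 members were lower by at least 1 at both times. No member had 0 counts in a mock uncut library, and 10 had 0 counts in at least 1 L-Kyn uncut library. Which loci qualify depended on the mock uncut libraries. With replicate 1, 2 or 3 of them left out, the limits are met by more loci (363, 388 and 661), and of the 200 lowest then taken, 87, 71 and 38 were among the 187. At the limit on the differences, the members closest to it, AT3G52670 and AT1G34340, reached -0.50 at one time, and the loci just outside, LOS4 (AT3G53110) and AT1G13940, also reached -0.50 after rounding. At the limit on the level, AT5G66800 and AT1G07280 averaged 5.02 and 5.03 CPM in mock uncut tips and were members, whereas AT1G52450 and AT1G10650 averaged 4.88 and 4.89 CPM and were not. In RefSeq's annotation, 181 members are protein-coding, 1 is a long non-coding RNA and 1 a transcribed pseudogene. The other 4 were not matched. The loci AT5G09460 to AT5G09463, whose counts are the same or nearly so, stand for 1 signal, which leaves 184 members when they are counted once.

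**Figure D1:**
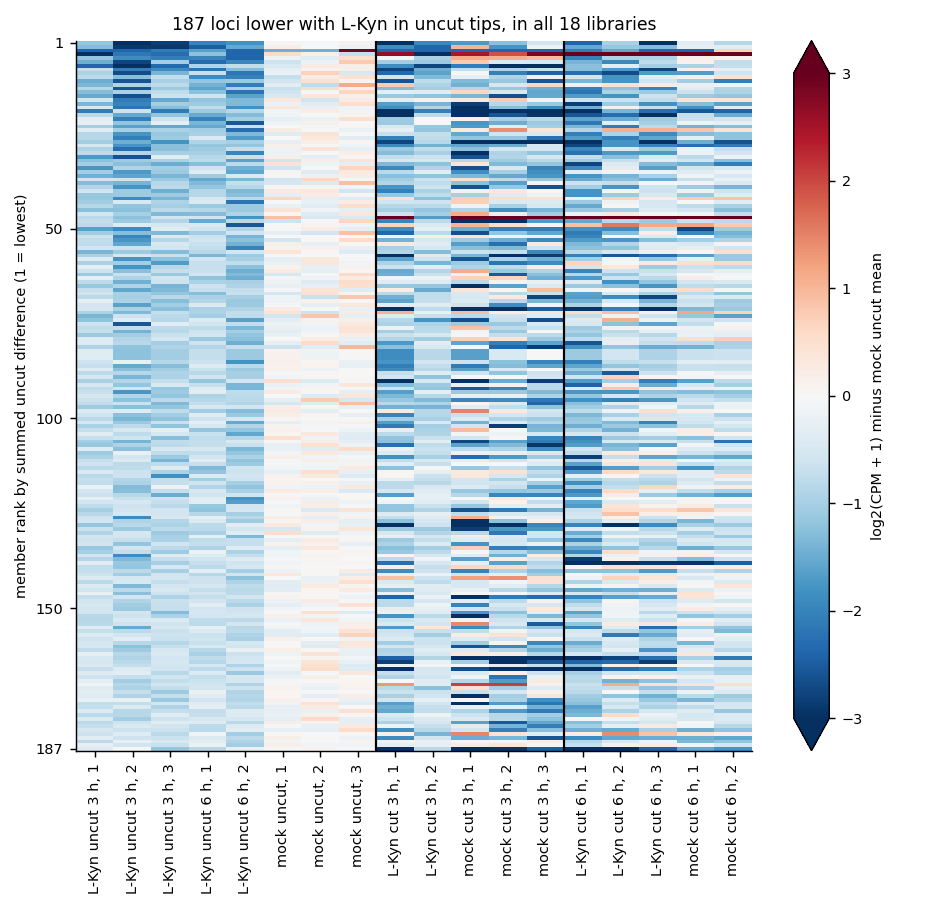
Heat map of the 187 members (rows, ordered by rank of the summed uncut difference, lowest first) in the 18 libraries (columns, by group and replicate). Colour gives log2(CPM + 1) minus the mean of the 3 mock uncut libraries, and black lines separate uncut, cut 3 h and cut 6 h tips. All 5 L-Kyn uncut columns lie below mock uncut because the loci were chosen that way. Most members are also below mock uncut in cut tips, with or without L-Kyn, and a few rows are far above it there.

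Aux/IAA repressor genes headed the members. Of 28 Aux/IAA genes in the table, 13 reached 5 CPM in mock uncut tips. Of those 13, 3 were members, against 1.43% of all loci at that level. They are IAA1 at rank 1, IAA19 at rank 2 and IAA4 at rank 8. IAA1 (AT4G14560) had 8.63, 0.776 and 2.09 CPM in L-Kyn uncut tips at 3 h and 4.42 and 5.19 CPM at 6 h, against 19.9, 20.01 and 22.7 CPM in mock uncut tips. The 3 mock libraries lay close together, and the highest L-Kyn library was under 9 CPM. IAA19 (AT3G15540) had 2.01, 0 and 0 CPM with L-Kyn at 3 h and 0.340 and 1.56 CPM at 6 h, against 7.44, 6.37 and 5.52 CPM with mock treatment, and both values of 0 are under the limit set by 3 counts. IAA4 (AT5G43700) had 13.8, 4.65 and 5.43 CPM with L-Kyn at 3 h and 4.08 and 8.56 CPM at 6 h, against 18.6, 24.6 and 25.6 CPM with mock treatment.

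The 300 bases before the annotated gene starts of IAA1, IAA19 and AT1G29270, a member whose RefSeq product is a transcription factor bHLH35-like protein, are shown because they hold the auxin response elements that were searched for. The sequences are from RefSeq's TAIR10.1 assembly, are read 5′ to 3′ on the gene's strand, and carry in capitals the element TGTCTC or the element TGTCGG, in the reverse complement where it stands on the other strand. They lie at chr4:8360696-8360995, chr3:5263701-5264000 and chr1:10229508-10229807, all on the plus strand.
IAA1: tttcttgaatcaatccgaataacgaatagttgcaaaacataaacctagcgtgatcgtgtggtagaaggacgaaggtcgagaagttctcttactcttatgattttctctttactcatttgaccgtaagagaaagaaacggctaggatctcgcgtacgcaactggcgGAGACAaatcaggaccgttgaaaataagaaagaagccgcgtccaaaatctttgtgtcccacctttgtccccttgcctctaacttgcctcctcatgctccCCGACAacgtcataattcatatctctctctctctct
IAA19: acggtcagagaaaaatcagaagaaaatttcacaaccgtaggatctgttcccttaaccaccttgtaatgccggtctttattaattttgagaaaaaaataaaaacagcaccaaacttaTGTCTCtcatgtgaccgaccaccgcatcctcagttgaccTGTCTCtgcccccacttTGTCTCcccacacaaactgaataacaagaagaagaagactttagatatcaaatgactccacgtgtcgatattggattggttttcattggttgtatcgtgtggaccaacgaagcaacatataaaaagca
AT1G29270: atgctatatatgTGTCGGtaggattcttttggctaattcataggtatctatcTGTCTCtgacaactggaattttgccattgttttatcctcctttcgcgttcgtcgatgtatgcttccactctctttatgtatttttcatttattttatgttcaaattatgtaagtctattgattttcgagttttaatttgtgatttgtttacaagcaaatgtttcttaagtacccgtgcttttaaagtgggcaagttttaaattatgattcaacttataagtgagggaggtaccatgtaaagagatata
TGTCTC stands 3 times in the window of IAA19, which ends at the base before the gene start, with first bases 184, 145 and 128 bases upstream. The IAA1 window holds TGTCTC on the other strand 135 bases upstream and TGTCGG on the other strand 36 bases upstream. The AT1G29270 window holds TGTCGG 288 bases and TGTCTC 248 bases upstream. The window of IAA4 holds neither, which says only that these letters are absent from those 300 bases. Over 183 member windows, TGTCTC was present on either strand in 30 (16.4%), against 13.1% of 21792 windows of all loci. TGTCGG was present in 10 member windows (5.46%), against 5.22% of all windows. CACGTG, the G-box, was present in 16 member windows (8.74%), against 7.75% of all windows. A match is a string of letters, not a shown binding site.

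L-Kyn was set against mock treatment in cut tips, whose libraries had no part in the choice of members. At 6 h, IAA1 had 3.11, 10.15 and 0 CPM in L-Kyn cut tips and 16.6 and 10.97 CPM in mock cut tips. The L-Kyn libraries all lay below both mock libraries, although 1 of them came close. The log2 fold change was -1.77 ± 0.82 (SE, adjusted p = 0.637) in edgeR's fit. IAA4 had 8.88, 6.25 and 2.49 CPM in L-Kyn cut tips and 24.9 and 18.4 CPM in mock cut tips at 6 h, with no overlap and a log2 fold change of -1.76 ± 0.56 (SE, adjusted p = 0.495) in edgeR's fit. IAA19 had 1.55, 2.34 and 1.99 CPM in L-Kyn cut tips and 5.11 and 4.83 CPM in mock cut tips, again with no overlap, and a log2 fold change of -1.35 ± 0.99 (SE, adjusted p = 0.805) in edgeR's fit.

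At 3 h the same 3 genes lay on the same side. IAA1 had 1.65 and 4.67 CPM in L-Kyn cut tips and 5.59, 8.14 and 14.0 CPM in mock cut tips, with a log2 fold change of -1.55 ± 0.83 (SE, adjusted p = 0.678) in edgeR's fit. IAA19 had 1.03 and 0.424 CPM in L-Kyn cut tips and 14.0, 1.16 and 5.61 CPM in mock cut tips, with a log2 fold change of -3.18 ± 1.05 (SE, adjusted p = 0.424), edgeR. IAA4 had 2.48 and 7.64 CPM in L-Kyn cut tips and 13.5, 11.6 and 14.0 CPM in mock cut tips, with a log2 fold change of -1.39 ± 0.58 (SE, adjusted p = 0.571), edgeR. Both L-Kyn libraries lay below all 3 mock libraries for each of the 3 genes, also without the library labelled replicate 2, where the log2 fold changes were -2.43, -2.67 and -2.36. For IAA19 the nearest libraries almost met, at 1.03 CPM with L-Kyn and 1.16 CPM with mock treatment. The latter is under the 1.74 CPM to which 3 counts correspond in that library. Over the 17 Aux/IAA genes tested, members included, 14 had a negative log2 fold change at 6 h (median -0.52) and 16 at 3 h (median -0.65), against 50.4% and 48.9% of all loci tested, and 0 were called at either time by edgeR.

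AT1G29270, at rank 5, lay lower with L-Kyn in cut tips too. It had 3.16, 1.55 and 1.25 CPM in L-Kyn uncut tips at 3 h and 1.36 and 0.778 CPM at 6 h, against 7.44, 6.37 and 12.7 CPM in mock uncut tips. In cut tips at 6 h it had 1.33, 3.903 and 3.99 CPM with L-Kyn and 9.58 and 9.21 CPM with mock treatment, a log2 fold change of -1.72 ± 0.58 (SE, adjusted p = 0.495) in edgeR's fit. At 3 h after the cut it had 8.26 and 3.82 CPM with L-Kyn and 19.5, 19.2 and 17.4 CPM with mock treatment, a log2 fold change of -1.63 ± 0.53 (SE, adjusted p = 0.409) in edgeR's fit. The L-Kyn libraries lay below every mock library at both times. The lower L-Kyn value at 3 h, 3.82 CPM, is that of replicate 2, the library near uncut tips. With 1 library left out in turn, the log2 fold change at 3 h ran from -2.30 to -1.16. PG2 (AT1G70370), a polygalacturonase by its RefSeq product and chosen here after its values were seen, had 41.4, 29.5 and 36.5 CPM in L-Kyn uncut tips at 3 h, 24.8 and 22.3 CPM at 6 h and 55.5, 63.7 and 46.4 CPM in mock uncut tips. In cut tips at 6 h it had 31.7, 44.5 and 35.9 CPM with L-Kyn and 79.2 and 92.6 CPM with mock treatment, with no overlap and a log2 fold change of -1.20 ± 0.38 (SE, adjusted p = 0.495) in edgeR's fit. At 3 h it had 29.5 and 25.9 CPM with L-Kyn and 90.3, 72.7 and 25.2 CPM with mock treatment, and mock replicate 3 lay below both L-Kyn libraries.

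**Figure D2:**
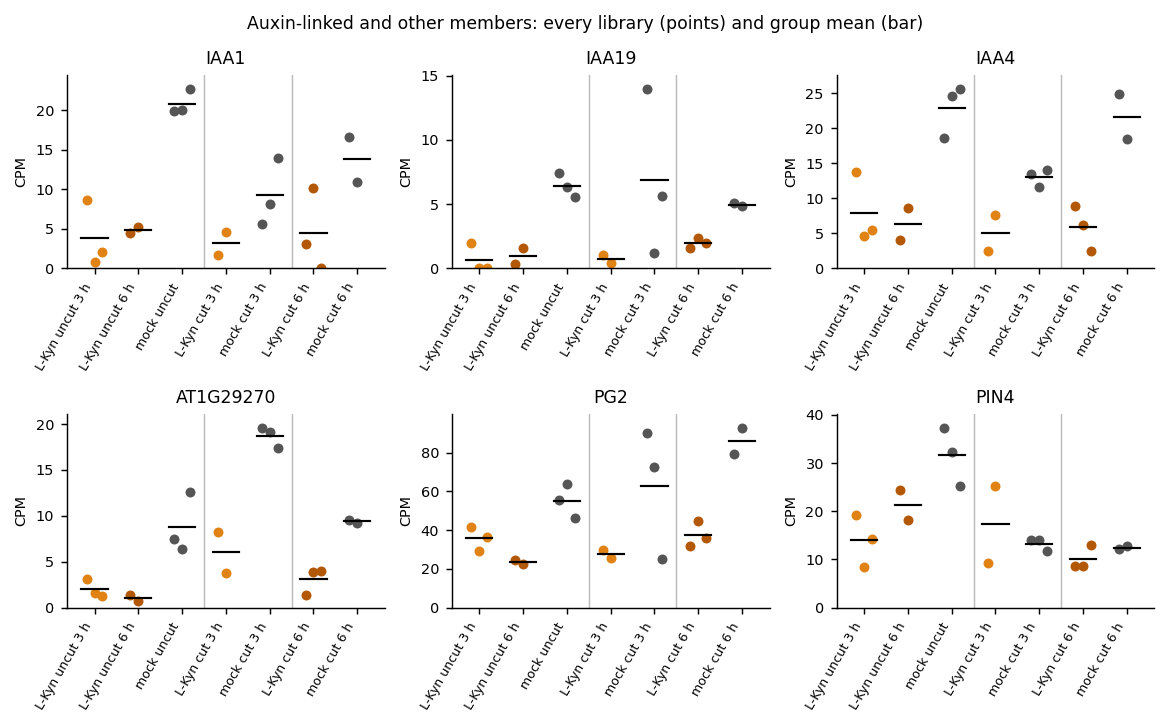
CPM of IAA1, IAA19, IAA4, AT1G29270, PG2 and PIN4 (y axes, linear from 0) in each of the 18 libraries (points, orange and brown for L-Kyn at 3 h and 6 h, grey for mock) with the group mean (bar), in uncut, cut 3 h and cut 6 h tips. In uncut tips the points of every gene shown are separated because the loci were chosen that way. In cut tips IAA1, IAA19, IAA4 and AT1G29270 have every L-Kyn point below every mock point at 3 h and at 6 h, whereas PIN4 points overlap. For IAA19 at 3 h the nearest points almost meet, at 1.03 and 1.16 CPM.

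PIN4 (AT2G01420), an auxin efflux carrier of the root meristem, was the only member among 14 auxin transport genes that reached 5 CPM (members are 1.43% of all loci there). It had 19.3, 8.53 and 14.2 CPM in L-Kyn uncut tips at 3 h and 24.5 and 18.1 CPM at 6 h, against 37.2, 32.3 and 25.3 CPM in mock uncut tips. In cut tips at 6 h it had 8.66, 8.59 and 12.97 CPM with L-Kyn and 12.1 and 12.7 CPM with mock treatment, and the groups overlapped. Its log2 fold change was -0.30 ± 0.44 (SE, adjusted p = 0.929) in edgeR's fit. NPY4 (AT2G23050), an NPH3-family protein, was chosen after its values were seen. It had 29.8, 39.0 and 44.9 CPM in L-Kyn cut tips and 56.9 and 55.3 CPM in mock cut tips at 6 h, with no overlap and a log2 fold change of -0.57 ± 0.37 (SE, adjusted p = 0.772) in edgeR's fit. No gene of the lists for auxin synthesis (2 at 5 CPM), for auxin inactivation by GH3 and DAO enzymes (3 at 5 CPM) or for LBD and other auxin targets (9 at 5 CPM) was a member. With members at 1.43% of all loci at that level, 0 in lists this short says little. TAA1 (AT1G70560), the enzyme that L-Kyn inhibits, was not a member either. It had 6.04, 6.98 and 5.85 CPM in L-Kyn uncut tips at 3 h and 5.78 and 4.67 CPM at 6 h, against 9.93, 16.4 and 5.52 CPM in mock uncut tips, and mock replicate 3 lay below 4 of the 5 L-Kyn libraries. In cut tips TAA1 had 4.44, 3.12 and 6.48 CPM with L-Kyn and 10.9 and 11.4 CPM with mock treatment at 6 h, with no overlap, and an edgeR log2 fold change of -1.20 ± 0.49 (SE, adjusted p = 0.578).

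CKX3 (AT5G56970), which breaks down the hormone cytokinin, ranked 6. It had 1.44, 0 and 2.30 CPM in L-Kyn uncut tips at 3 h and 0.340 and 0.778 CPM at 6 h, against 3.41, 5.004 and 10.7 CPM in mock uncut tips. In cut tips it had 1.55, 0.781 and 2.99 CPM with L-Kyn and 6.39 and 3.07 CPM with mock treatment at 6 h, and 2.27 and 2.12 CPM with L-Kyn and 10.7, 4.07 and 3.92 CPM with mock treatment at 3 h. The groups did not overlap at either time, values were near the floor of 3 counts, and the log2 fold changes were -1.30 ± 0.84 (SE, adjusted p = 0.761) at 6 h and -1.51 ± 0.79 (SE, adjusted p = 0.674) at 3 h in edgeR's fit. MYB14 (AT2G31180), a transcription factor, had 4.89, 0.776 and 3.34 CPM in L-Kyn uncut tips at 3 h and 6.12 and 1.56 CPM at 6 h, against 8.995, 17.3 and 7.14 CPM in mock uncut tips. MYB14 in cut tips at 6 h had 1.33, 0.781 and 2.49 CPM with L-Kyn and 2.56 and 6.58 CPM with mock treatment, so that the nearest libraries of the groups almost met.

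The remaining loci among the 12 lowest show how unlike the members are. AT4G29020, a glycine-rich protein by its RefSeq product, owed its mean to 1 library, mock uncut replicate 3. It had 0, 0 and 0.209 CPM in L-Kyn uncut tips at 3 h and 0.680 and 0 CPM at 6 h, against 0.930, 0.910 and 37.3 CPM in mock uncut tips. AT4G15630, an uncharacterized protein, had 0, 0.776 and 0.626 CPM in L-Kyn uncut tips at 3 h and 2.38 and 0.519 CPM at 6 h, against 10.5, 7.73 and 3.89 CPM in mock uncut tips. In cut tips it lay far above those values, with 112, 206 and 167 CPM with L-Kyn and 134 and 89.5 CPM with mock treatment at 6 h. At 3 h AT4G15630 had 48.3 and 0 CPM with L-Kyn and 41.9, 28.5 and 54.9 CPM with mock treatment, and the value of 0 is that of the library labelled replicate 2. KIN1 (AT5G15960), a stress-responsive gene chosen after its values were seen, also lay far above its mock uncut values in cut tips at 6 h. It had 153, 202 and 301 CPM in L-Kyn cut, 413 and 399 CPM in mock cut and 23.9, 8.64 and 8.76 CPM in mock uncut tips. Its L-Kyn cut libraries lay below both mock cut libraries at 6 h, whereas those of AT4G15630 overlapped with mock. At 3 h KIN1 had 385 and 3.18 CPM with L-Kyn, the lower one again in replicate 2, and 693, 414 and 169 CPM with mock treatment.

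Of AT3G16370 (a GDSL-like lipase), AT4G14980 (a C1-domain protein), AT1G06710 (a TPR-like protein) and AT1G61360 (an S-locus lectin kinase), mean levels in mock uncut tips were 7.35, 5.54, 5.30 and 6.47 CPM. AT4G14980 was the one of these 4 with no overlap in cut tips at 6 h, with 3.11, 0.781 and 3.99 CPM with L-Kyn and 4.47 and 7.46 CPM with mock treatment.

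The division genes included 3 members that belong to a list of 23 mitotic genes. In mock uncut tips 22 of the list reached 5 CPM, where members are 1.43% of all loci. The 20 mitotic genes that are not members summed to 360 to 582 CPM in L-Kyn uncut libraries. In mock uncut libraries they summed to 417 to 653 CPM, so that the groups overlapped. The 3 members are the B-type cyclins CYCB2;1 (AT2G17620) and CYCB2;3 (AT1G20610), partners of the kinases that drive entry into mitosis, and POK2 (AT3G19050), a kinesin that places the division plane. CYCB2;1 had 8.34, 4.65 and 6.26 CPM in L-Kyn uncut tips at 3 h and 4.76 and 5.70 CPM at 6 h, against 14.3, 15.5 and 16.5 CPM in mock uncut tips. At 6 h after the cut CYCB2;1 had 1.78, 2.34 and 0.997 CPM with L-Kyn and 8.94 and 4.83 CPM with mock treatment, with a log2 fold change of -1.95 ± 0.85 (SE, adjusted p = 0.607) in edgeR's fit. The 3 L-Kyn libraries lay below both mock libraries, which were themselves below every mock uncut library.

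CYCB2;3 had 22.4, 16.3 and 13.2 CPM in L-Kyn uncut tips at 3 h and 16.3 and 16.9 CPM at 6 h, against 38.5, 32.3 and 27.6 CPM in mock uncut tips. In cut tips at 6 h it had 3.33, 7.03 and 1.99 CPM with L-Kyn and 12.1 and 14.5 CPM with mock treatment, with no overlap and a log2 fold change of -1.78 ± 0.67 (SE, adjusted p = 0.542) in edgeR's fit. POK2 had 26.5, 32.6 and 28.6 CPM in L-Kyn uncut tips at 3 h and 24.8 and 27.5 CPM at 6 h, against 38.8, 64.6 and 32.8 CPM in mock uncut tips. After the cut, POK2 at 6 h had 4.22, 7.81 and 9.47 CPM with L-Kyn and 22.4 and 21.1 CPM with mock treatment, with no overlap and a log2 fold change of -1.65 ± 0.66 (SE, adjusted p = 0.571) in edgeR's fit. All 23 mitotic genes had a negative log2 fold change at 6 h (median -1.62), against 50.4% of all loci tested. Of the 22 at 5 CPM, 18 had all L-Kyn libraries below both mock libraries, against 21.7% of all loci at that level. edgeR called 0 of the 23.

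At 3 h the mitotic members turned on 1 library. CYCB2;1 had 0.413 and 8.48 CPM in L-Kyn cut tips and 0, 1.74 and 1.12 CPM in mock cut tips. CYCB2;3 had 3.099 and 18.7 CPM with L-Kyn and 0.465, 1.16 and 5.04 CPM with mock treatment, and POK2 had 1.86 and 30.3 CPM with L-Kyn and 6.05, 4.07 and 2.80 CPM with mock treatment. In each case the high L-Kyn value is that of replicate 2, the library near uncut tips. With both libraries the log2 fold changes at 3 h were 2.2, 2.28 and 1.83, and without replicate 2 they were -1.04, 0.52 and -1.19. Where replicate 1 was left out instead, edgeR called all 3 as higher with L-Kyn (adjusted p = 0.0331, 0.0149 and 0.00278), among 386 loci called, so no direction at 3 h is given for them. Over the mitotic list at 3 h, 1 of 23 genes had a negative log2 fold change (median 1.66), and without replicate 2 it was 14 of 23 (median -0.33). edgeR called 0 of the 23 in either fit and 9 where replicate 1 was left out.

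Other members tied to the cytoskeleton or to division were picked after their values were seen. AT2G28620, which RefSeq describes as a P-loop nucleoside triphosphate hydrolase, had 4.44, 4.68 and 2.99 CPM in L-Kyn cut tips and 20.4 and 19.7 CPM in mock cut tips at 6 h, a log2 fold change of -2.27 ± 0.67 (SE, adjusted p = 0.474) in edgeR's fit. AT5G62550, a microtubule-associated futsch-like protein in RefSeq, had 5.77, 7.81 and 8.48 CPM with L-Kyn and 33.9 and 23.7 CPM with mock treatment, a log2 fold change of -1.97 ± 0.57 (SE, adjusted p = 0.471), edgeR. MRLK (AT3G56100), a meristematic receptor-like kinase and the last member by rank, had 1.55, 1.56 and 2.99 CPM with L-Kyn and 6.39 and 5.26 CPM with mock treatment at 6 h, with no overlap and an edgeR log2 fold change of -1.49 ± 0.73 (SE, adjusted p = 0.646). Not all genes of this kind lay lower. CYCD1;1, a D-type cyclin, had a log2 fold change of 0.14 ± 0.89 (SE, adjusted p = 0.986) at 6 h, and that of FZR2, an activator of the anaphase-promoting complex, was 0.13 ± 0.43 (SE, adjusted p = 0.973) in edgeR's fit. For CDC45, a replication factor, it was -0.18 ± 0.44 (SE, adjusted p = 0.96), and for EB1a, which binds microtubule ends, it was 0.32 ± 0.45 (SE, adjusted p = 0.925). All 4 had libraries that overlapped between the groups at 6 h.

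**Figure D3:**
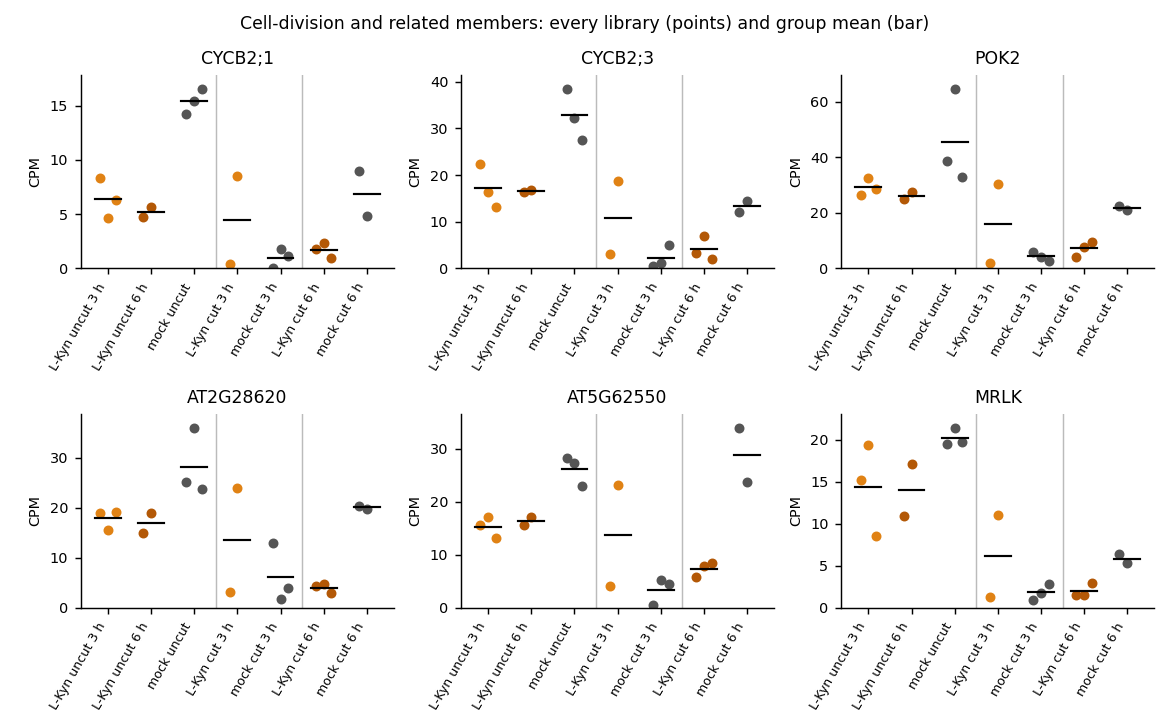
CPM of CYCB2;1, CYCB2;3, POK2, AT2G28620, AT5G62550 and MRLK (y axes, linear from 0) in each of the 18 libraries (points, orange and brown for L-Kyn at 3 h and 6 h, grey for mock) with the group mean (bar). At 6 h after the cut all 3 L-Kyn points lie below both mock points in each panel, and at 3 h the high L-Kyn point is the library labelled replicate 2.

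Phloem genes gave 3 members of 8 at 5 CPM, where members are 1.43% of all loci at that level. CalS7 (AT1G06490) makes callose at phloem sieve plates, and SMXL4 (AT4G29920) and SMXL5 (AT5G57130) are needed for phloem to form. CalS7 had 8.63, 3.103 and 4.80 CPM in L-Kyn uncut tips at 3 h and 5.10 and 5.19 CPM at 6 h, against 14.6, 12.7 and 11.7 CPM in mock uncut tips. SMXL4 had 3.74, 3.103 and 2.51 CPM with L-Kyn at 3 h and 3.06 and 4.67 CPM at 6 h, against 12.1, 7.73 and 7.14 CPM with mock treatment, and SMXL5 had 6.61, 8.53 and 8.14 CPM with L-Kyn at 3 h and 6.46 and 5.70 CPM at 6 h, against 12.1, 13.6 and 11.7 CPM with mock treatment. For all 3 the libraries overlapped between L-Kyn and mock in cut tips at 6 h, with log2 fold changes of -0.03 ± 0.67 (SE, adjusted p = 0.995) for CalS7, 0.53 ± 0.92 (SE, adjusted p = 0.942) for SMXL4 and 0.13 ± 0.41 (SE, adjusted p = 0.969) for SMXL5 in edgeR's fit. Of the phloem list, 6 of 12 genes tested were negative at 6 h, against 50.4% of all loci tested. CPC (AT2G46410), a MYB-type protein of epidermal cell fate, was the only member among 7 epidermal genes at 5 CPM, against the same 1.43% of all loci. It had 6.90, 7.76 and 6.68 CPM in L-Kyn uncut tips at 3 h and 5.10 and 8.04 CPM at 6 h, against 11.2, 14.1 and 12.004 CPM in mock uncut tips, and overlapped in cut tips at 6 h, with 3.11, 16.4 and 13.5 CPM with L-Kyn and 14.7 and 7.46 CPM with mock treatment.

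The lists of stem cell niche (14 at 5 CPM), root cap (6), xylem (7), DNA replication (19), cell wall expansin and XTH (13), wound and jasmonate (10) and green tissue genes (15) held 0 members. Members are 1.43% of all loci at that level, so 0 in lists of this length says little about these genes. In all, 12 members belong to any of 22 lists, and the other members are not written in them. The lists are short, so a gene outside them can still have such a role, as with CDC45, a member and a replication factor. By RefSeq product, 10 members (5.35%) carry PPR or TPR repeats, against 2.14% of loci at 5 CPM, and 9 (4.81%) are protein kinases, against 2.84%.

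Over all 187 members, values at 6 h after the cut tended to be lower with L-Kyn. The log2 fold change of L-Kyn cut over mock cut tips was negative for 133 members (71.1%), against 50.4% of 16354 loci tested. Its median was -0.33 over members, with quartiles of -0.78 and 0.04, against -0.01 over all loci. All 3 L-Kyn libraries lay below both mock libraries for 62 members (33.2%), against 21.7% of loci at 5 CPM. They lay above both for 5 members (2.67%), against 15.5% of those loci, and the 5 are AT3G27220, RABB1a, AT2G26600, EIN3 and HSF3. EIN3 (AT3G20770), a transcription factor of ethylene signalling chosen after its values were seen, had 154, 148 and 125 CPM with L-Kyn and 116 and 121 CPM with mock treatment.

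No single member passed the test at 6 h. edgeR called 0 of 187 members and 0.0% of all loci, and the lowest adjusted p among members was 0.405. At an unadjusted p under 0.05, 21 members were lower and 0 higher, or 11.2% in the lower direction, against 3.56% lower and 4.16% higher over all loci. The lowest p-values belonged to AT2G44120, AT5G62550, AT2G28620 and AT5G50840, which are named after their values were seen. AT2G44120, of the ribosomal protein L30/L7 family, had 101, 108 and 106 CPM in L-Kyn cut tips and 222 and 261 CPM in mock cut tips, with no overlap and a log2 fold change of -1.19 ± 0.32 (SE, adjusted p = 0.405) in edgeR's fit. It was the 1 of 187 members that DESeq2 called (adjusted p = 0.0476), among 48 of 16354 loci. AT5G50840, an alpha-taxilin-like protein, had 8.66, 11.7 and 16.0 CPM with L-Kyn and 29.4 and 23.3 CPM with mock treatment, with no overlap and a log2 fold change of -1.12 ± 0.35 (SE, adjusted p = 0.495) in edgeR's fit.

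The shift over members leaned on L-Kyn cut 6 h replicate 1. It had 4503955 reads on genes, against 1280947 to 2279217 in the other cut 6 h libraries. Low alignment quality took 47.0% of its table total, against 74.5% to 83.2% in those, and whether this bears on the shift was not tested. The median member, as log2(CPM + 1) minus the mock uncut mean, was at -1.24 in that library, at -0.57 and -0.71 in L-Kyn cut 6 h replicates 2 and 3, and at -0.47 and -0.56 in mock cut 6 h libraries. Without that library the median log2 fold change was -0.12, 111 members (59.4%) were negative, 67 (35.8%) lay below both mock libraries, against 30.4% of loci at 5 CPM, and 35 (18.7%) lay above both, against 29.8%. The log2 fold changes of IAA1, IAA4, AT1G29270, PG2, CYCB2;1, CYCB2;3 and POK2 without it were -1.59, -2.37, -1.25, -1.11, -2.08, -1.67 and -1.32.

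**Figure D4:**
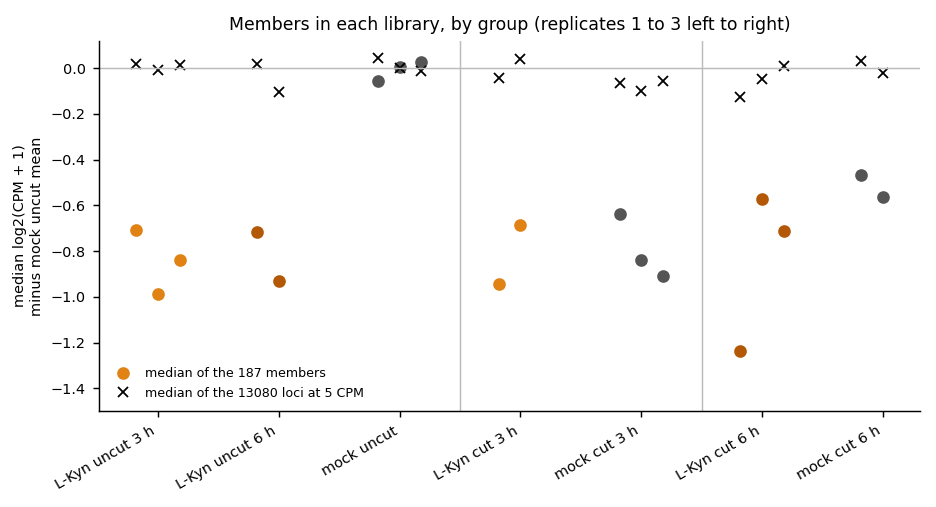
Median over the 187 members (circles, orange and brown for L-Kyn at 3 h and 6 h, grey for mock) and over the 13080 loci at 5 CPM (crosses) of log2(CPM + 1) minus the mock uncut mean (y axis), for each library by group (x axis). Members lie below 0 in every library other than mock uncut, lowest at -1.24 in L-Kyn cut 6 h replicate 1, and the crosses stay within -0.12 and 0.04.

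At 3 h after the cut the members as a whole lay near all loci. The log2 fold change was negative for 99 members (52.9%), against 48.9% of loci, and its median was -0.07, against 0.01. Both L-Kyn libraries lay below all 3 mock libraries for 17 members (9.09%), against 6.23% of loci at 5 CPM, and above them for 20 (10.7%), against 8.8%. edgeR called 0 members and 0.0% of loci. At an unadjusted p under 0.05, 9 members were lower and 16 higher (over all loci 2.57% lower and 5.27% higher). DESeq2 called 0 members among 27 of 16354 loci. Without the library labelled replicate 2 the median was -0.22 and 125 members were negative (66.8%, against 52.3% of loci), and replicate 1 alone lay below all mock libraries for 42 members (22.5%), against 14.8%, and above them for 28 (15.0%), against 16.2%. HB5 (AT5G65310), a homeobox protein chosen after its values were seen, had 9.09 and 20.15 CPM with L-Kyn and 36.3, 50.6 and 41.5 CPM with mock treatment at 3 h, with no overlap and a log2 fold change of -1.58 ± 0.46 (SE, adjusted p = 0.344) in edgeR's fit.

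**Figure D5:**
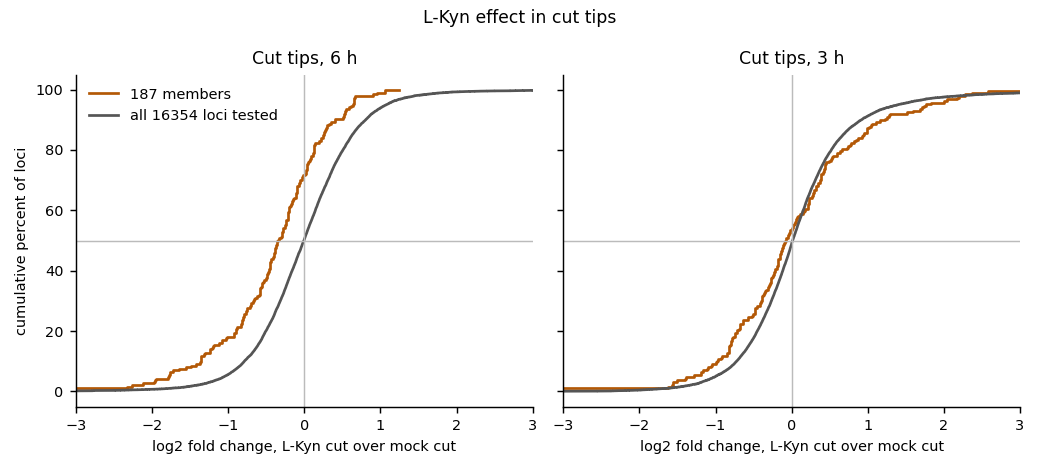
Cumulative percent of loci (y axis) by log2 fold change of L-Kyn cut over mock cut tips (x axis, shown from -3 to 3) for the 187 members (brown) and all 16354 loci tested (grey), at 6 h (left) and 3 h (right). The member curve is shifted to the left at 6 h (medians -0.33 and -0.01) and lies close to that of all loci at 3 h (medians -0.07 and 0.01).

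The difference between the 6 h and 3 h effects of L-Kyn in cut tips was tested itself. It was negative for 117 members (62.6%), against 51.4% of all loci, with a median of -0.28, against -0.02. edgeR called 0 members and 0.0% of loci. At an unadjusted p under 0.05, 23 members were lower and 2 higher, with 3.69% lower and 2.31% higher over all loci. DESeq2 called CYCB2;3 and AT5G62550 among 31 of 16354 loci. With replicate 2 of L-Kyn cut 3 h left out, the median was -0.07 and 101 members (54.0%) were negative, against 45.8% of loci.

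By rank in uncut tips, the median log2 fold change in cut tips at 6 h was -0.55 for ranks 1 to 62, -0.35 for ranks 63 to 124 and -0.24 for ranks 125 to 187, and 25, 19 and 18 of them had no overlap in the lower direction, against 21.7% of loci at 5 CPM. Negative values did not follow that order, with 45 of 62, 49 of 62 and 39 of 63 members. The first of these groups was also expressed at a lower level, with a median of 9.10 CPM in mock uncut tips, against 17.6 and 18.2 CPM in the others. Across the 187 members, the 6 h difference in uncut tips and the 6 h log2 fold change in cut tips had a Spearman correlation of 0.21. At 3 h the corresponding correlation was -0.03. Both are descriptions across genes, which share libraries and are not independent.

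In cut tips the members also lay below mock uncut tips, with or without L-Kyn, a comparison that uses the mock libraries on which they were chosen. All libraries of the group lay below all 3 mock uncut libraries at 3 h for 140 members with L-Kyn and for 89 with mock treatment, and at 6 h for 111 with L-Kyn and for 106 with mock treatment. The shares were 74.9%, 47.6%, 59.4% and 56.7% of members, against 9.58%, 14.5%, 12.9% and 17.2% of loci at 5 CPM. The median member was -0.84, -0.83, -0.86 and -0.52 from the mock uncut mean in those groups on the log2(CPM + 1) scale. The members were chosen for high values in the mock uncut libraries used here, so these counts have no test. The L-Kyn count at 3 h rests on 2 libraries, and the mock count on 3. Replicate 2 of those L-Kyn libraries lies near L-Kyn uncut tips, in which members are low by the choice. The median member was at -0.94 in L-Kyn cut 3 h replicate 1 and at -0.69 in replicate 2. Members above mock uncut tips numbered 0 with L-Kyn and 6 with mock treatment at 3 h after the cut, and 4 with L-Kyn and 13 with mock treatment at 6 h. Over all loci at 5 CPM the shares above were 8.67%, 8.99%, 10.6% and 16.0%, against 0%, 3.21%, 2.14% and 6.95% of members.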

How the data were processed

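Whole root tips of Arabidopsis seedlings were profiled by 3′ RNA sequencing in 18 libraries of 7 groups. The authors deposited raw counts of reads for each locus. The submitters' processing notes list Bowtie2, HTSeq and DESeq2 with the build TAIR10, without versions. The table has 22093 loci and 3 lines that name no gene (low alignment quality 46.4% to 83.2% of a library's table total, no feature 3.75% to 15.1%, ambiguous 0.0918% to 0.329%), which were left out. The smallest total of a locus is 5 counts.

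CPM values are counts divided by a library's total over loci, with no TMM factor (0.905 to 1.04). Differences in uncut tips are on the log2(CPM + 1) scale, which understates changes of low loci. Contrasts were fitted to the counts of all 18 libraries with edgeR's quasi-likelihood test, a mean per group, TMM factors and edgeR's expression filter by group, which left 16354 loci, all 187 members among them. A locus was called at an adjusted p (Benjamini-Hochberg over those loci) under 0.05. Counts without overlap use the 13080 loci at 5 CPM. The floor is 3 counts per library and covers counting error only.

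Tools were R 4.3.3, edgeR 4.0.16, DESeq2 1.42.0, Python 3.11.15, pandas 2.3.3, scipy 1.17.1 and matplotlib 3.10.9. Symbols, products and sequences came from RefSeq's TAIR10.1 by locus ID, which matched 21793 loci and 183 members, and the 300 bases upstream of the annotated start were searched on both strands. The files' build differs in name, so coordinates are those of TAIR10.1. Loci that overlap or resemble each other may share reads.

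The members, the lists (468 symbols written in 22 lists, 440 matched to 1 locus) and the tests were chosen with earlier results of these data known. Genes named are the 12 members lowest in uncut tips, members in a list, the last members by rank, loci at the limits and TAA1. Members of a cut contrast called by the edgeR fit would have been named too, and it called none. Others are marked as chosen after their values were seen. Alternatives were RLE factors, DESeq2, no filter or a stricter one (mean of 5 CPM), fits with a replicate block or of the compared groups only, and libraries left out.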

Additional observations from a re-analysis of the deposited data

How the results depend on the processing

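Calls in cut tips depended on the tool. Where edgeR called 0 of 16354 loci and 0 of 187 members, DESeq2 called 48 of those loci at 6 h with 1 member. It called 27 at 3 h with 0 members, and 31 in the difference of the effects with 2 members. A fit of only the groups compared called 37 of 13481 loci and 2 of 147 members at 6 h (AT2G28620 and AT5G62550, both lower). With no filter, 1 of 22093 loci was called at 6 h and 15 at 3 h, with 0 members. RLE factors and the stricter filter called 0 members. With each library left out in turn, edgeR called 0 to 386 loci and 0 to 10 members at 3 h, and 0 to 239 loci and 0 to 10 members in the difference, the highest values without L-Kyn cut 3 h replicate 1. The fit without that library tested 16940 loci, 187 members among them. At 6 h edgeR called 0 of both. The median log2 fold change of members then ran from -0.46 to -0.12 at 6 h and from -0.22 to -0.00078 at 3 h, and that of the difference from -0.47 to -0.065. Members with no overlap then numbered 67 to 90 below (35.8% to 48.1%, against 27.7% to 31.5% of loci at 5 CPM) and 6 to 35 above (3.21% to 18.7%, against 18.8% to 29.8%) at 6 h, and 28 to 45 below (15.0% to 24.1%, against 11.8% to 20.4%) and 25 to 57 above (13.4% to 30.5%, against 14.8% to 31.9%) at 3 h.

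Same-numbered replicates did not deviate together (correlations of -0.08 and -0.03 at 6 h and of 0.10 and 0.09 at 3 h), and the main fit does not pair them. Groups this small cannot show whether same-numbered libraries were made together. With a replicate block, edgeR called 0 loci, and the median of members was -0.32 at 6 h, 0.02 at 3 h and -0.36 for the difference. The sign at 3 h thus changed with the block. No call changed.

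By the rule for members, 155 loci qualified with TMM-scaled CPM, 152 of them members, and 125 with a level of 10 CPM. With a pseudocount of 0.5, 193 qualified. With each of the 8 uncut libraries left out in turn (4 of the L-Kyn ones added after seeing the data), 198 to 661 qualified, since fewer libraries must then be separated, and 38 to 171 of the 187 were among the at most 200 lowest then taken. TGTCTC on the gene's strand alone was in 9.29% of member windows, against 6.72% of all.

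Some single genes changed sign. At 6 h CalS7 was at 0.0156 with RLE factors. With 1 library left out in turn it ran from -0.26 to 0.40, CPC from -0.46 to 0.48, CDC45 from -0.55 to 0.28, SMXL4 from -0.31 to 1.23 and SMXL5 from -0.25 to 0.46. At 3 h CYCB2;1 ran from -1.04 to 3.14 and POK2 from -1.19 to 2.76, the negative values without L-Kyn cut 3 h replicate 2. The cause of these changes was not tested.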
